A study of Mus musculus with 12 samples.

Results

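The genes described here are the SR proteins, the heterogeneous nuclear ribonucleoproteins (hnRNPs) and the RBFOX, CELF, NOVA, MBNL and PTBP families, whose products decide which exons a neuron keeps in its mRNAs. Members were taken by symbol from the protein-coding genes of GENCODE release M21. The rule found 48 genes among the 41091 gene IDs of the count tables, 21384 of which were protein-coding. They comprised 11 SR protein genes, 20 hnRNP genes, 3 RBFOX, 6 CELF, 2 NOVA, 3 MBNL and 3 PTBP genes. Their expression was compared between hippocampal slices after chemical long-term potentiation (LTP) and control slices, 1 hr and 3 hr after treatment.

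All 12 libraries were of total RNA, depleted of ribosomal RNA, from hippocampal slices cut acutely from C57BL/6 wild-type mice aged 2 to 3 months, with the dentate gyrus trimmed away. The 1 hr LTP and 3 hr LTP slices had received 50 uM forskolin, which activates adenylyl cyclase, alone for 5 min, and forskolin with 30 mM KCl and 10 mM calcium for the rest of the 10 min treatment. The 1 hr control and 3 hr control slices were given 0.2% DMSO, the vehicle, for those 10 min. Each group had 3 libraries, and the slices of 1 animal were split between LTP and control within a time point. Slices are mixtures of neurons, glia and vascular cells, so fewer cells of a type and less RNA per cell cannot be told apart in any value below.

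Total counts were between 37118382 and 50815001 per library, and the members held 0.751% to 0.830% of them. On the log2 scale the immediate early genes Arc, Fos and Npas4 were higher after LTP by 1.97 to 2.60 at 1 hr and 1.30 to 1.48 at 3 hr. According to the study's methods, only samples in which Arc and the short Homer1 isoform had risen after LTP were sequenced. The rise of Arc was thus a condition of inclusion and is no check of the induction. All LTP comparisons below rest on samples selected in this way. Among 31 markers of cell types, only Ttr of the choroid plexus was at 0 in any library. The summed level of the neuron markers ranged from 4330.5 to 5777 CPM (counts scaled to a common library total), and that of the dentate granule cell markers Prox1, Dsp and C1ql2 from 112 to 213 CPM, so these markers were not absent after trimming. The library of 1 hr control replicate 2 had been set aside in the study after clustering and was left out of the fits. Its values are given apart.

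As background, SR proteins carry RNA-recognition motifs and a domain rich in arginine and serine, and mostly promote the use of exons to which they bind. Many hnRNPs act against them and silence splice sites, and others shape RNA export, stability and transport. The RBFOX, CELF, NOVA, MBNL and PTBP proteins set the splicing patterns that separate neurons from other cells, and several of them also bind 3′ untranslated regions and affect polyadenylation sites. Many of these genes carry conserved exons whose inclusion exposes the transcript to nonsense-mediated decay, and a count per gene does not separate such transcripts from those that encode protein.

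The first question was whether any member shares sequence at its start with the elements through which forskolin acts. Forskolin raises cAMP, and the factor CREB binds the cAMP response element (CRE) TGACGTCA or its half-site TGACG. Promoters were taken from RefSeq on GRCm38.p6, as the 250 bases before and 50 bases after each start, and 43 of the 48 members had an entry, with 72 promoters in all. Letters were searched on both strands. A complete CRE was in 4 of the 72 promoters (5.56%), those of Celf3 and Celf6, against 1.79% of all 32851 promoters. The Celf3 promoters with a CRE overlap and hold the same site, so the 4 are not separate sites. By gene, 2 of the 43 members had a complete CRE. Overlapping promoters of a gene, such as those of Hnrnph1, were counted one by one in all shares given here. A half-site, which a complete CRE also contains, was in 31 of the 72 (43.1%), of 23 members, against 20.8% of all promoters. The members' promoters were richer in CpG, the dinucleotide in the half-site, with a median of 24 CpG each against 7 over all promoters and a median GC content of 63.2% against 52.7%. The E-box CACGTG was in 9.72% of the members' promoters and 7.15% of all promoters, and the AP-1 site TGAGTCA was in 1.39% (1 promoter, of Hnrnpa1) and 5.20%. The Egr site GCGGGGGCG was in 6.94% of the members' promoters and 2.91% of all promoters, and TATAAA in 11.1% and 13.6%. A match of letters is no evidence that a factor binds there.

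The promoters of 4 members that were higher after LTP, described in the next paragraphs, are shown as examples. Ptbp1 holds such letters and the other 3 do not. Of the 23 members with a half-site, Ptbp1 was the only one called in LTP against control, so the half-site did not mark the members called. Hnrnpll, also higher after LTP, had no promoter entry and could not be searched. Capitals mark CRE half-sites and E-boxes.
Ptbp1, chr10:79854182-79854481, plus strand: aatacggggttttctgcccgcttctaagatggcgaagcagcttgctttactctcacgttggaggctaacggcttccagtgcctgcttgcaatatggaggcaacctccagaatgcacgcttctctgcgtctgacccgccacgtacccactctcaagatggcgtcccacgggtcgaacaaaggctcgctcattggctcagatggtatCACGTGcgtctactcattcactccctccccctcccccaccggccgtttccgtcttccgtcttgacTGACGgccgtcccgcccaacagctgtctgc
Hnrnpu, chr1:178337766-178338065, minus strand: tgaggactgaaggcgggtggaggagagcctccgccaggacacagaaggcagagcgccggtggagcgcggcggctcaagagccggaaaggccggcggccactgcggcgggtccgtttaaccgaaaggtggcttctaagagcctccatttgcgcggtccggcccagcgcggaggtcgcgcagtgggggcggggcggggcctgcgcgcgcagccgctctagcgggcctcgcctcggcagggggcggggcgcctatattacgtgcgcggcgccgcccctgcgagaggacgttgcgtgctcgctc
Srsf7, chr17:80207256-80207555, minus strand: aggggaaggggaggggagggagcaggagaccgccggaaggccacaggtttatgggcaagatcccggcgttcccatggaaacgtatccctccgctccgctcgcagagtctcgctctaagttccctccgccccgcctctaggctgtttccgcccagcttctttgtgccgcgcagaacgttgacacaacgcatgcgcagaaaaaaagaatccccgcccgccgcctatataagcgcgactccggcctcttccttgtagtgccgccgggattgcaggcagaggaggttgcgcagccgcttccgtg
Nova2, chr7:18925638-18925937, plus strand: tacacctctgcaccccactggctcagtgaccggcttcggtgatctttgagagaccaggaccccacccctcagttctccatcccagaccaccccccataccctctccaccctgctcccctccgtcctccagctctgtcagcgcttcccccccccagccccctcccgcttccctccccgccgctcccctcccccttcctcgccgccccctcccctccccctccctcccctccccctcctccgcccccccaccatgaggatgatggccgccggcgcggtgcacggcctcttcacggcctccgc
In Ptbp1 the E-box began at position -45 and the half-site at position 21, counted from the start site at 1. The windows of Hnrnpu, Srsf7 and Nova2 held none of the 6 motifs searched. Celf2 had 5 promoters, of which 1 held TATAAA and none held the other motifs. Their GC content ran from 46.3% to 80.3%, and a count per gene does not tell which of them was in use.

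Levels of the members were compared per kb of merged exons (CPM per kb). By this length Rbfox1 had the highest level, 114 ± 16.7 CPM per kb (SD, n = 11 libraries), followed by Srsf5 at 97.4 ± 11.3 and Hnrnpk at 78.2 ± 5.50 CPM per kb. Rbfox1, Srsf5, Hnrnpk, Celf4, Mbnl2, Ptbp2 and Nova2 led their families, and the same 7 did so when the longest transcript was used as the length, but the order across families changed. By that length Hnrnpk was first at 170.3 CPM per kb, followed by Rbfox1 at 164, Celf4 at 123 and Srsf5 at 112 CPM per kb, and Celf2 passed Celf1 and Celf5, which were above it by merged exons. The study describes its expression analysis as using reads in coding regions, and whether the deposited counts were limited to them is not stated. Per kb of merged coding sequence the same 7 led their families, Srsf5 was first at 472 CPM per kb, and Mbnl2 (420.3), Rbfox1 (374) and Hnrnpk (346) followed, so the order between families depends on the length. Per kb of merged exons the ranges of Rbfox1 (95.5 to 137 CPM per kb) and Srsf5 (82.1 to 116) overlapped, and so did those of Ptbp2 (14.3 to 23.8) and Ptbp1 (12.4 to 23.6). The NOVA genes, which encode neuron-specific KH-domain proteins first found as autoantigens, were the lowest of the families with a measurable level, with Nova2 at 3.64 ± 1.07 and Nova1 at 2.23 ± 0.324 CPM per kb. Mbnl3, the muscleblind gene used mainly outside the adult brain, had between 0.0440 and 0.185 CPM and was too low to be tested. The other 47 members passed the filter on low counts in every comparison.

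**Figure D1:**
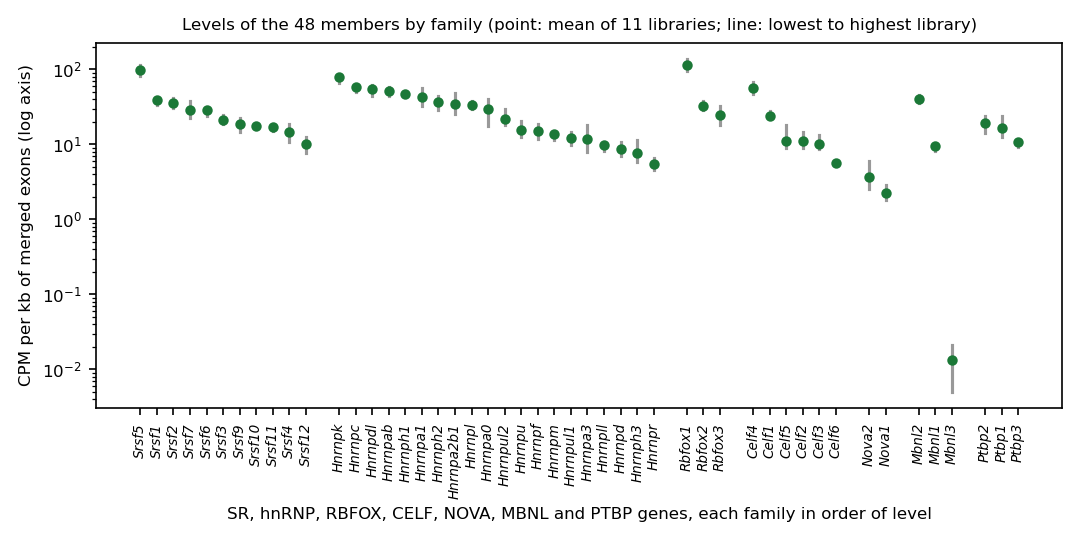
Levels of the 48 members in CPM per kb of merged exons on a log axis, ordered by level within each family. Points are means of 11 libraries and lines run from the lowest to the highest of all 12 libraries, the one set aside included. By this length Rbfox1 is highest at 114 CPM per kb (Hnrnpk is highest by longest transcript and Srsf5 by coding length), and Mbnl3 lies far under the others at 0.0134 CPM per kb.

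The next comparison asked which members responded to LTP at 1 hr. Hnrnpu, Ptbp1, Hnrnpll and Srsf7 were higher in LTP than in control slices, and no member was lower. These 4 were 8.51% of the 47 members tested, and 0.789% of all 17736 genes tested were called in this comparison (0.778% higher, 0.0113% lower). A call required an adjusted p under 0.1 and a change over 1.2-fold. The median log2 fold change was 0.03 over the members, 30 of which were above 0, and -0.0010 over all genes. LTP and control libraries did not overlap for 10 members on the higher side and 6 on the lower, against 22.6% of all genes (10.6% and 12%).

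Hnrnpu encodes a large nuclear protein also known as scaffold attachment factor A, which binds nascent RNA and chromatin. Its level was 160 and 165 CPM in 1 hr control replicates 1 and 3, and 209.5, 235 and 198 CPM in the 3 LTP libraries. Every LTP library was above both controls. The log2 fold change was 0.41 (SE 0.0784, adjusted p = 0.0225). The control set aside had 143 CPM, the lowest of the 6.

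Ptbp1 encodes the polypyrimidine tract-binding protein, a repressor of neural exons that gives way to its relative Ptbp2 as neurons form and is found mainly in non-neuronal cells of the adult brain. Ptbp1 rose from 58.9 and 61.9 CPM in the controls to 90.8, 81.4 and 73.9 CPM after LTP, a log2 fold change of 0.45 (SE 0.0874, adjusted p = 0.0253). LTP and control did not overlap, also with the control set aside at 64.1 CPM. Within animals 1, 2 and 3 the log2 ratio of LTP to control was 0.62, 0.34 and 0.26, animal 2 being the one whose control was set aside.

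Hnrnpll, a relative of the hnRNP L protein known for its part in CD45 splicing in lymphocytes, had 96.7 and 102 CPM in controls and 118, 125 and 123 CPM after LTP. Its log2 fold change was 0.31 (SE 0.0686, adjusted p = 0.0734). Srsf7, an SR protein with a zinc knuckle that shuttles between nucleus and cytoplasm, had 78.7 and 83.0 CPM in controls and 99.5, 104 and 96.1 CPM after LTP. The change of Srsf7 was 0.31 on the log2 scale as well (SE 0.0711, adjusted p = 0.0810). In both genes every LTP library lay above every control, the one set aside included (96.3 CPM for Hnrnpll, 82.0 CPM for Srsf7).

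Hnrnpll and Srsf7 lie on the same strand of chromosome 17, at chr17:80029487-80062334 and chr17:80200080-80207307 (GRCm38, minus strand), 137745 bases apart. This was noticed after their values were seen. The 1 protein-coding gene between them, Galm on the plus strand, had a log2 fold change of -0.15 (SE 0.228, adjusted p = 0.965) at 1 hr.

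Among the members not called at 1 hr, 4 had an unadjusted p under 0.05. Hnrnpa2b1, whose product carries dendritic and myelin mRNAs, had a log2 fold change of 0.28 (adjusted p = 0.109) with 170 and 178 CPM in controls and 214, 215 and 201 CPM after LTP. Hnrnph3 had 0.33 (adjusted p = 0.326), Nova2 0.29 (adjusted p = 0.451) and Celf2 0.15 (adjusted p = 0.737). These 8 members, the called ones included, were 8 of 47, and 6.71% of all genes had such a p. For Nova2 the control set aside, at 27.6 CPM, lay among the LTP libraries at 25.4 to 29.5 CPM.

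The 1 hr calls rested on few libraries. By edgeR without 1 hr control replicate 1 or without replicate 3, which leaves 1 control whose spread is taken from the other group, 0 of the members were called (7 and 5 had an unadjusted p under 0.05), and without LTP replicate 1 only Hnrnpu was (adjusted p = 0.0939). Calls over all genes fell too, from 0.789% to 0.373%, 0.424% and 0.527% in these 3 fits. The log2 fold change ran over all alternatives from 0.34 to 0.47 for Hnrnpu, 0.37 to 0.52 for Ptbp1, 0.27 to 0.34 for Hnrnpll and 0.27 to 0.35 for Srsf7. The call of Srsf7 was lost under 6 of 15 alternatives, also with total counts in place of TMM and without LTP replicate 2. With the library set aside included the 4 calls stayed and Hnrnpa2b1 was called as well (0.29, adjusted p = 0.0847), with 0.827% of all genes called. With animal as a block Hnrnph3 was called as well (log2 fold change 0.38, adjusted p = 0.0396), with 1.16% of all genes called. With the block and that library together 0.643% of all genes were called. Of the members Hnrnpu alone was (log2 fold change 0.47, adjusted p = 0.0876), with Ptbp1 at 0.42 (adjusted p = 0.152), Hnrnpll at 0.32 (adjusted p = 0.224) and Srsf7 at 0.30 (adjusted p = 0.313).

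**Figure D2:**
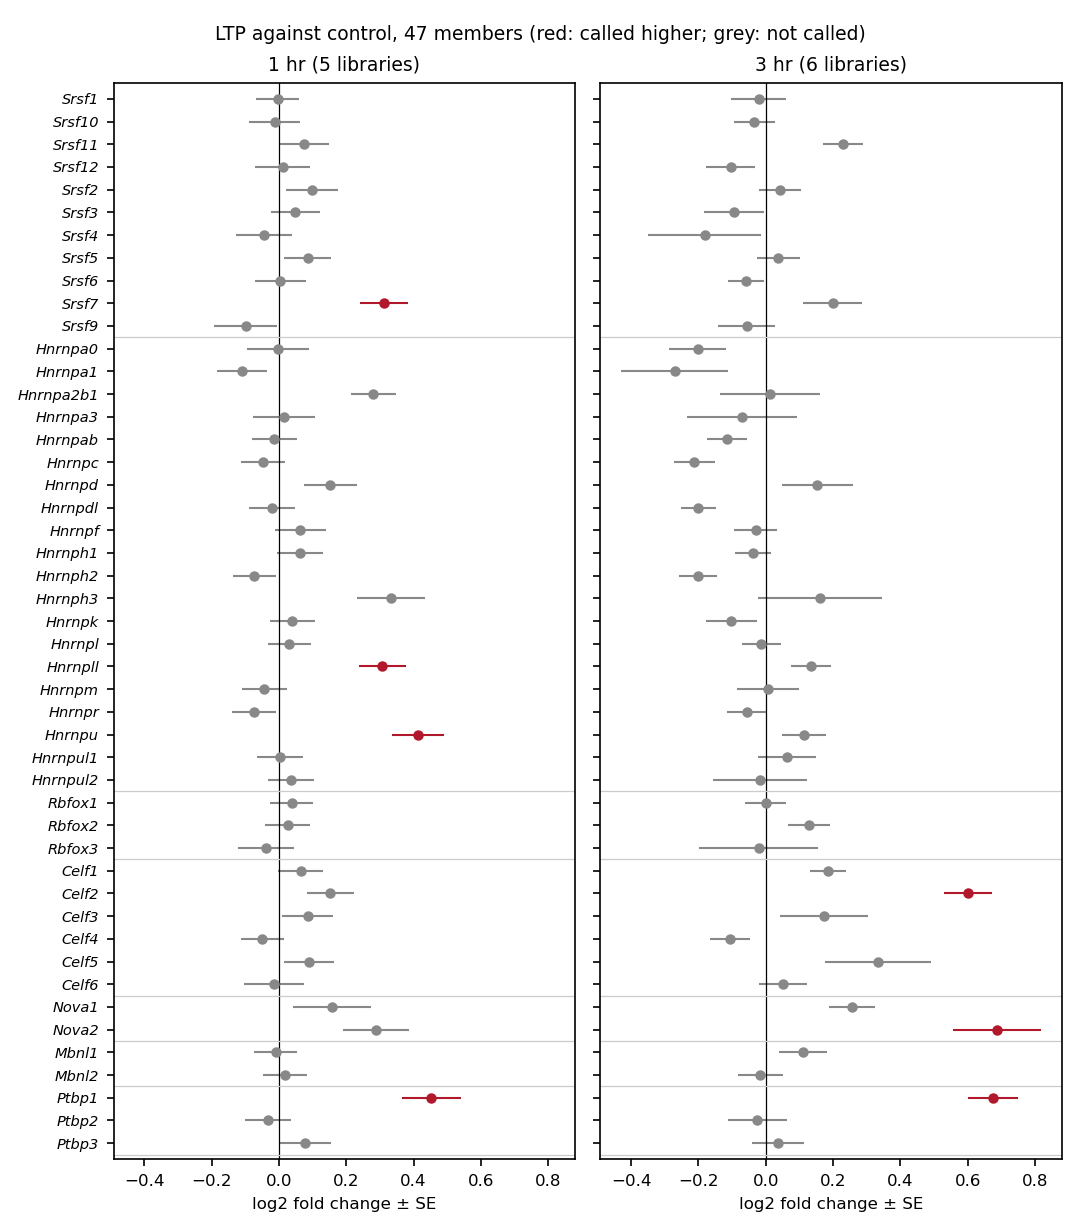
Log2 fold change of LTP against control at 1 hr (left) and 3 hr (right) for the 47 members tested, in rows by family, with bars of 1 SE. Red points are members called higher, 4 at 1 hr and 3 at 3 hr. Ptbp1 is red in both panels, at 0.45 and 0.68.

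At 3 hr the members called came from the PTBP, CELF and NOVA families. Ptbp1, Celf2 and Nova2 were higher after LTP, and no member was lower. They were 6.38% of the 47 members, and 6.60% of all 17508 genes tested were called (5.07% higher, 1.53% lower), so the share of members called was near that of genes in general. The median log2 fold change of the members was -0.01, with 22 above 0 and 25 below. The groups did not overlap for 8 members on the higher side and 7 on the lower, against 27% of all genes (12.9% and 14.1%).

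Ptbp1 had 63.7, 70.4 and 62.1 CPM in the 3 hr controls and 101, 97.8 and 112 CPM in the LTP libraries, 65.4 ± 4.41 against 103 ± 7.54 CPM (SD, n = 3 each). The lowest LTP library was well above the highest control. Its log2 fold change was 0.68 (SE 0.0749, adjusted p = 0.00378), with 0.66, 0.47 and 0.85 in animals 1, 2 and 3. Ptbp1 was the only member called at both times.

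Celf2 encodes a protein that binds GU-rich RNA and regulates splicing, stability and translation in brain, heart and lymphocytes. It had 256, 229 and 239 CPM in controls and 366, 337 and 383 CPM after LTP, 241 ± 13.6 against 362 ± 23.6 CPM. The groups were apart in every library, with a log2 fold change of 0.60 (SE 0.0709, adjusted p = 0.00475) and 0.52, 0.56 and 0.68 in the 3 animals. Of the other CELF genes, Celf1 was above control in every LTP library at 0.19 (adjusted p = 0.0957, under the fold minimum) and Celf5 at 0.33 was not called (adjusted p = 0.276). Celf4, the most abundant, was at -0.11 (adjusted p = 0.357).

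Nova2, the NOVA protein of most cortical and hippocampal neurons, had 26.2, 26.9 and 27.3 CPM in controls and 43.7, 33.8 and 50.6 CPM after LTP. All 3 LTP libraries were higher, though they spread from 33.8 to 50.6 CPM while the controls lay between 26.2 and 27.3 CPM. The log2 fold change was 0.69 (SE 0.131, adjusted p = 0.0281). Nova1 was at 0.26 (adjusted p = 0.0815) and just under the fold minimum, with 16.4, 16.0 and 16.7 CPM in controls and 19.6, 18.8 and 19.6 CPM after LTP. Leaving out any one of the 3 controls or LTP replicate 1 ended the call of Nova2 (adjusted p of 0.106 to 0.133), while Ptbp1 and Celf2 were called under all 14 alternatives tried (adjusted p at most 0.0352 and 0.0422).

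**Figure D3:**
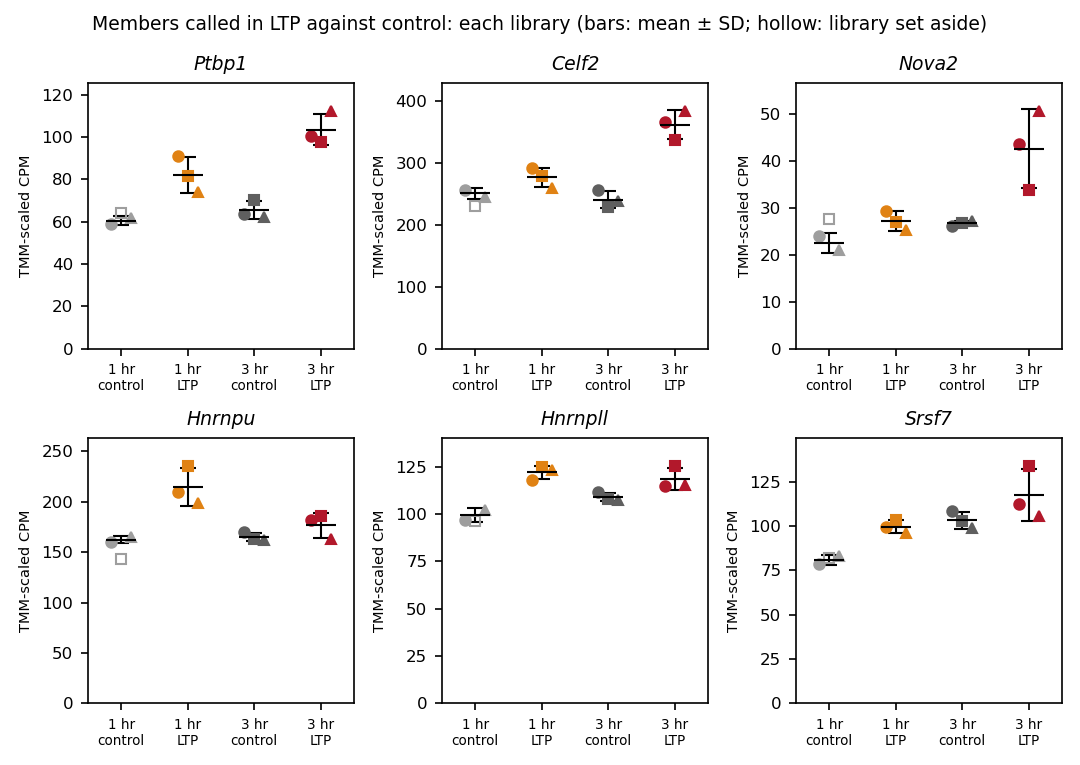
TMM-scaled CPM of the 6 members called in LTP against control at either time, in every library. Circles, squares and triangles are replicates 1, 2 and 3, bars are mean ± SD, and the hollow square is the 1 hr control set aside. Ptbp1 is higher after LTP at both times, Celf2 and Nova2 show the wider gap at 3 hr, and Hnrnpu reaches 235 CPM at 1 hr and no more than 186 CPM at 3 hr.

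The members that were called at 1 hr but not at 3 hr were also above 0 at 3 hr, and their difference between times is given below. Hnrnpu was at 0.11 (SE 0.0652, adjusted p = 0.370), with controls at 169.9, 163 and 162 CPM and LTP libraries at 182, 186 and 163 CPM, which overlap. Hnrnpll was at 0.13 (adjusted p = 0.238) and Srsf7 at 0.20 (adjusted p = 0.252).

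A further 8 members had an unadjusted p under 0.05 at 3 hr without being called, which made 11 of 47 in all, against 20.2% of all genes. Srsf11, an SR-related protein that takes part in the inclusion of neuronal microexons, was at 0.23 (adjusted p = 0.0689). Hnrnpdl at -0.20 (adjusted p = 0.0769), Hnrnph2 at -0.20 (adjusted p = 0.0940), Hnrnpc at -0.21 (adjusted p = 0.101) and Hnrnpa0 at -0.20 (adjusted p = 0.223) lay below control. Hnrnpc, which covers uridine tracts in introns, had 266, 270 and 238 CPM in controls and 218, 219 and 226 CPM after LTP, with no overlap. The others were Nova1, Celf1 and Hnrnpll, given above.

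The 3 hr LTP libraries differed among themselves for a subset of members. Between replicates 3 and 2, 9 of the 47 members (19.1%) differed by over 0.5 on the log2 scale, as did 15.8% of all genes tested. Hnrnpa2b1 had 193 CPM in replicate 2 and 316 CPM in replicate 3, and Rbfox3, the gene of the neuronal marker NeuN, had 104 and 192 CPM. Without replicate 2, 8 members were called, all higher. They were Ptbp1 (0.72), Celf2 (0.66), Nova2 (0.83), Nova1 (0.28), Celf3 (0.31), Celf5 (0.51), Srsf11 (0.27) and Hnrnpd (0.27), when 12.2% of all genes were called. Without replicate 3, 6 were called, with Hnrnpa0 at -0.30, Hnrnpa1 at -0.50 and Hnrnpa3 at -0.32 as lower members beside Ptbp1, Celf2 and Nova2, when 7.45% of all genes were called. The part of these libraries in the result was not tested further.

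Whether the LTP effect itself differed between 3 hr and 1 hr was tested as an interaction. It was called for 0 of the 47 members at an adjusted p under 0.1 in edgeR (3 had an unadjusted p under 0.05), and for 0.0592% of all 18584 genes (0.0269% higher, 0.0323% lower), of which 6.59% had such an unadjusted p. DESeq2 called 1 member, Celf2, and so did edgeR with no filter on low counts or without 3 hr LTP replicate 2. These fits called 0.430%, 0.359% and 0.363% of all genes. In edgeR the difference for Celf2 was 0.46 (SE 0.103, adjusted p = 0.269), for Nova2 0.41 (SE 0.180, adjusted p = 0.735) and for Hnrnpu -0.29 (SE 0.106, adjusted p = 0.625). For Ptbp1 it was 0.23 (SE 0.122, adjusted p = 0.830), for Hnrnpll -0.17 (adjusted p = 0.806) and for Srsf7 -0.11 (adjusted p = 0.946). In the edgeR fit a call at one time and not at the other is thus not shown to be a difference between the times, and for Celf2 this depends on the tool and the filter.

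In level per kb, the balance within families moved with these changes. The ratio of Ptbp1 to Ptbp2 was 0.523 and 0.554 in the 1 hr controls (0.674 in the one set aside) and 0.882, 0.728 and 0.659 in the 1 hr LTP libraries. At 3 hr it was 0.782, 0.900 and 0.855 in controls and 1.37, 1.15 and 1.65 after LTP, so Ptbp1 was above Ptbp2 in every 3 hr LTP library by this length. With the longest transcript as the length the ratio was 0.516, 0.594 and 0.564 in those controls and 0.904, 0.759 and 1.09 after LTP. Ptbp1 was then above Ptbp2 in 3 hr LTP replicate 3 alone. Per kb of coding sequence the ratio was 0.366 to 0.421 in those controls and 0.539 to 0.773 after LTP. Ptbp1 was then below Ptbp2 in every library. LTP and control did not overlap at 3 hr, and the choice of length cannot alter this, as it scales every library's ratio alike. The ratio of Nova2 to Nova1 was 1.67 to 1.75 in the 3 hr controls and 1.88 to 2.69 after LTP (1.37 to 1.43 and 1.54 to 2.20 with the longest transcript, 1.51 to 1.58 and 1.70 to 2.43 per coding kb). Celf2 made up 8.19 ± 0.464% of the summed CELF level in 3 hr controls and 11.5 ± 0.101% in 3 hr LTP slices (SD, n = 3 each), 13.1 ± 0.716% and 18.4 ± 0.170% with the longest transcript, and 17.4 ± 0.881% and 23.7 ± 0.174% with the coding length. A fold change of 1 gene does not depend on the length. Ptbp2 itself was at -0.03 (SE 0.0673) in LTP against control at 1 hr and at -0.02 (SE 0.0866) at 3 hr.

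The RBFOX and MBNL families gave no call at either time. The RBFOX genes, activators or silencers of neuronal exons according to where they bind, lay between -0.04 and 0.04 at 1 hr and between -0.02 and 0.13 at 3 hr. Mbnl1 and Mbnl2, the muscleblind genes whose proteins are sequestered by expanded repeats in myotonic dystrophy, lay between -0.01 and 0.02 at 1 hr and between -0.02 and 0.11 at 3 hr. Of the 11 SR genes the 10 other than Srsf7 lay between -0.10 and 0.10 at 1 hr, and all 11 between -0.18 and 0.23 at 3 hr. The standard errors of single members reached 0.116 at 1 hr and 0.184 at 3 hr (Nova1 and Hnrnph3), and smaller changes could pass unseen.

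Markers of cell types were set beside these results. In LTP against control edgeR called 0 of the 31 markers at 1 hr (7 with an unadjusted p under 0.05) and 0 of the 30 tested at 3 hr (5 with such a p). The 5 microglia markers were all below 0 at both times, between -0.27 and -0.02. At 1 hr the 4 endothelial markers lay at -0.37 to -0.20 with no overlap between groups, their sum being 85.5 and 92.3 CPM in controls and 72.1 to 76.0 CPM after LTP, and the 5 oligodendrocyte markers lay at 0.15 to 0.26, their sum being 4498 and 5470 CPM in controls and 5301 to 6343 CPM after LTP. At 3 hr the endothelial sum was 72.3 to 74.9 CPM in controls and 70.8 to 83.9 CPM after LTP. Of the neuron and astrocyte markers at 3 hr, Stmn2 at -0.27 (adjusted p = 0.183), Gad2 at 0.16 (adjusted p = 0.193) and Aqp4 at -0.28 (adjusted p = 0.152) had an unadjusted p under 0.05. The neuron sum was 4521 to 4714 CPM in 3 hr controls and 4330.5 to 4999.6 CPM after LTP, which overlap. Their part in the members' values was not tested.

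Genes of the same machinery outside the families were counted in 4 lists. They held 7 SR protein kinases and CLK kinases, 13 SR-like and exon junction proteins, 33 other RNA-binding regulators and 35 core spliceosome proteins. At 1 hr edgeR called 0 of these 88 genes, and the unadjusted p was under 0.05 for 7. Among the lower p were those of Clk1 at 0.28 (adjusted p = 0.349) and Ddx5 at 0.20 (adjusted p = 0.492). At 3 hr, when 6.60% of all genes were called, 3 of the 13 SR-like proteins were higher, Srrm1 at 0.48 (adjusted p = 0.0326), Srrm2 at 0.48 (adjusted p = 0.0570) and Srrm4, which promotes neuronal microexons, at 0.65 (adjusted p = 0.0551). All 3 were lowest in replicate 2 and highest in replicate 3 of the 3 hr LTP libraries, with Srrm2 at 404 and 546 CPM there. Of the 33 other regulators 3 were higher and 1 was lower. Sfpq was at 0.32 (adjusted p = 0.0231), Raver2, a partner of PTBP proteins, at 0.31 (adjusted p = 0.0281), Khdrbs2 at 0.42 (adjusted p = 0.0365) and the cold-inducible Cirbp at -0.34 (adjusted p = 0.0583). Among the core spliceosome proteins only the Sm protein gene Snrpd3 was called, at -0.35 (adjusted p = 0.0356), while 31 of 35 lay below 0 with a median of -0.08, against 8846 of all 17508 genes. At 1 hr 27 of the 35 lay below 0, with a median of -0.08 as well, against 8925 of all 17736 genes. The kinases gave no call at 3 hr, and 2 of 7 had an unadjusted p under 0.05.

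The last comparison was between time points within the same treatment, where many more members differed. In controls, 18 of 47 members (38.3%) were called between 3 hr and 1 hr, 8 higher and 10 lower at 3 hr, and 32.8% of all 18584 genes were called (16.1% higher, 16.8% lower). An unadjusted p under 0.05 was found for 26 members and for 42.1% of all genes. The groups did not overlap for 22 members on the higher side and 16 on the lower, against 60.7% of all genes (31.5% and 29.2%). With total counts in place of TMM scaling the split was 12 higher and 8 lower, and over all genes it went from 2987 higher and 3115 lower to 3496 and 2626. An animal's slices were split within a time point and the time points are taken to be different animals, so time after treatment and animal cannot be told apart.

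The largest rises were among hnRNP genes. Hnrnpa0, a single-exon relative of hnRNP A1, had 54.1 and 57.0 CPM in the 1 hr controls and 108, 104 and 104 CPM in the 3 hr controls, a log2 difference of 0.89 (SE 0.107, adjusted p = 9.94e-05). Hnrnpa3 had 49.0 and 49.3 CPM at 1 hr and 74.7, 81.9 and 79.1 CPM at 3 hr (0.65, SE 0.167, adjusted p = 0.0102). Hnrnpf, which binds runs of G, had 36.4 and 36.2 CPM at 1 hr and 50.5, 56.7 and 51.7 CPM at 3 hr (0.52, SE 0.0700, adjusted p = 0.000221). In all 3 genes the lowest 3 hr control was above the highest 1 hr control, the one set aside included. The other members called higher were Hnrnpa2b1 (0.48), Hnrnpa1 (0.41), Hnrnpul2 (0.35), Srsf7 (0.32) and Srsf2 (0.27). The call of Hnrnpa1 was lost without 1 hr control replicate 1 or 3 or 3 hr control replicate 2, and that of Hnrnpul2 without either 1 hr control (adjusted p up to 0.179 and 0.184).

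The largest falls were of Ptbp2, Srsf12 and Hnrnpr. Ptbp2, the neuronal PTB protein, had 218 and 216 CPM in the 1 hr controls (184 in the one set aside) and 158, 151 and 141 CPM in the 3 hr controls, a log2 difference of -0.56 (SE 0.0846, adjusted p = 0.000400). Srsf12 had 39.0 and 36.9 CPM at 1 hr and 28.1, 27.8 and 28.9 CPM at 3 hr (-0.45, SE 0.0774, adjusted p = 0.000886). Hnrnpr, which binds axonal mRNAs, had 141 and 146 CPM at 1 hr and 113, 111 and 104 CPM at 3 hr (-0.42, SE 0.0607, adjusted p = 0.000313). None of these 3 overlapped between times. Rbfox1 (-0.40), Hnrnph2 (-0.39), Hnrnpul1 (-0.35), Celf4 (-0.35), Nova1 (-0.34), Mbnl1 (-0.30) and Srsf5 (-0.29) were called lower as well. The call of Nova1 was lost without 1 hr control replicate 1 or 3 or 3 hr control replicate 2, and those of Mbnl1 and Srsf5 without replicate 3 of either control group.

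**Figure D4:**
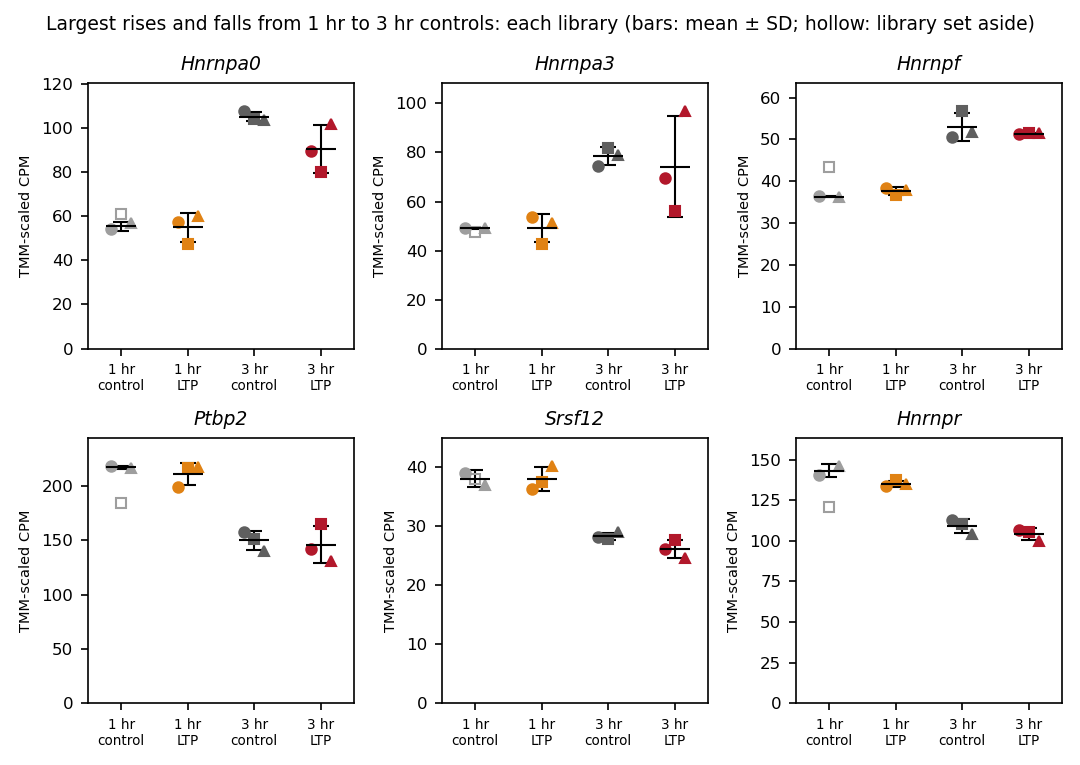
TMM-scaled CPM in every library of the 3 members with the largest rise (top) and the 3 with the largest fall (bottom) between 1 hr and 3 hr controls. Symbols are as in the plot of the members called after LTP. Hnrnpa0 goes from at most 61.2 CPM in 1 hr controls to at least 104 CPM in 3 hr controls, and Ptbp2 from at least 184 to at most 158 CPM.

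The LTP slices came from the same animals as the controls of each time point, in libraries of their own, and gave 21 of 47 members called between 3 hr and 1 hr (44.7%), 10 higher and 11 lower, and 35.9% of all genes (18.6% higher, 17.3% lower). An unadjusted p under 0.05 was found for 33 members and for 46.2% of all genes, and the groups did not overlap for 15 members on the higher side and 17 on the lower, against 44.9% of all genes (23.6% and 21.3%). Of the 21 members, 12 were also called in controls, all in the same direction, which, the animals being shared, is not independent support. This is 66.7% of the control calls and 57.1% of the LTP calls. Over all genes those shares were 71.0% and 64.9%. The 12 were Srsf5, Srsf12, Hnrnpa0, Hnrnpa3, Hnrnpf, Hnrnph2, Hnrnpr, Hnrnpul1, Hnrnpul2, Rbfox1, Celf4 and Ptbp2. Hnrnpa0 was at 0.70 (SE 0.0938, adjusted p = 0.000143) and Ptbp2 at -0.55 (SE 0.0767, adjusted p = 0.000182) in LTP slices. Called in LTP slices alone were Celf2 (0.37), Nova2 (0.63), Ptbp1 (0.32), Celf3 (0.33), Celf5 (0.54) and Srsf9 (0.29) as higher and Hnrnpu (-0.30), Hnrnpab (-0.27) and Hnrnpdl (-0.37) as lower, and those called in controls alone were Srsf2, Srsf7, Hnrnpa1, Hnrnpa2b1, Nova1 and Mbnl1. The edgeR interaction called none of these members, and that of Celf2 was called in DESeq2 and under the other alternatives given above, so a difference between treatments is not shown for the others. The call of Hnrnpab, at the fold minimum, was lost under 11 of 19 alternatives, DESeq2 among them. Calls in LTP slices were also lost without 3 hr LTP replicate 3 for Ptbp1 (0.26), Hnrnpu (-0.23), Celf3 (0.24) and Hnrnpul2 (0.12). Without 1 hr LTP replicate 2 those of Hnrnpu (-0.19), Srsf9 (0.24) and Hnrnpul2 (0.31) were lost. The calls of Srsf9 (0.23) and Celf3 (0.29) were lost without 3 hr LTP replicate 1. Hnrnpul1 lost its call without 1 hr LTP replicate 1 or 3 or 3 hr LTP replicate 2 (-0.26 to -0.19). Celf5 and Hnrnpa3 kept their calls without 3 hr LTP replicate 3 but at 0.34 for both.

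**Figure D5:**
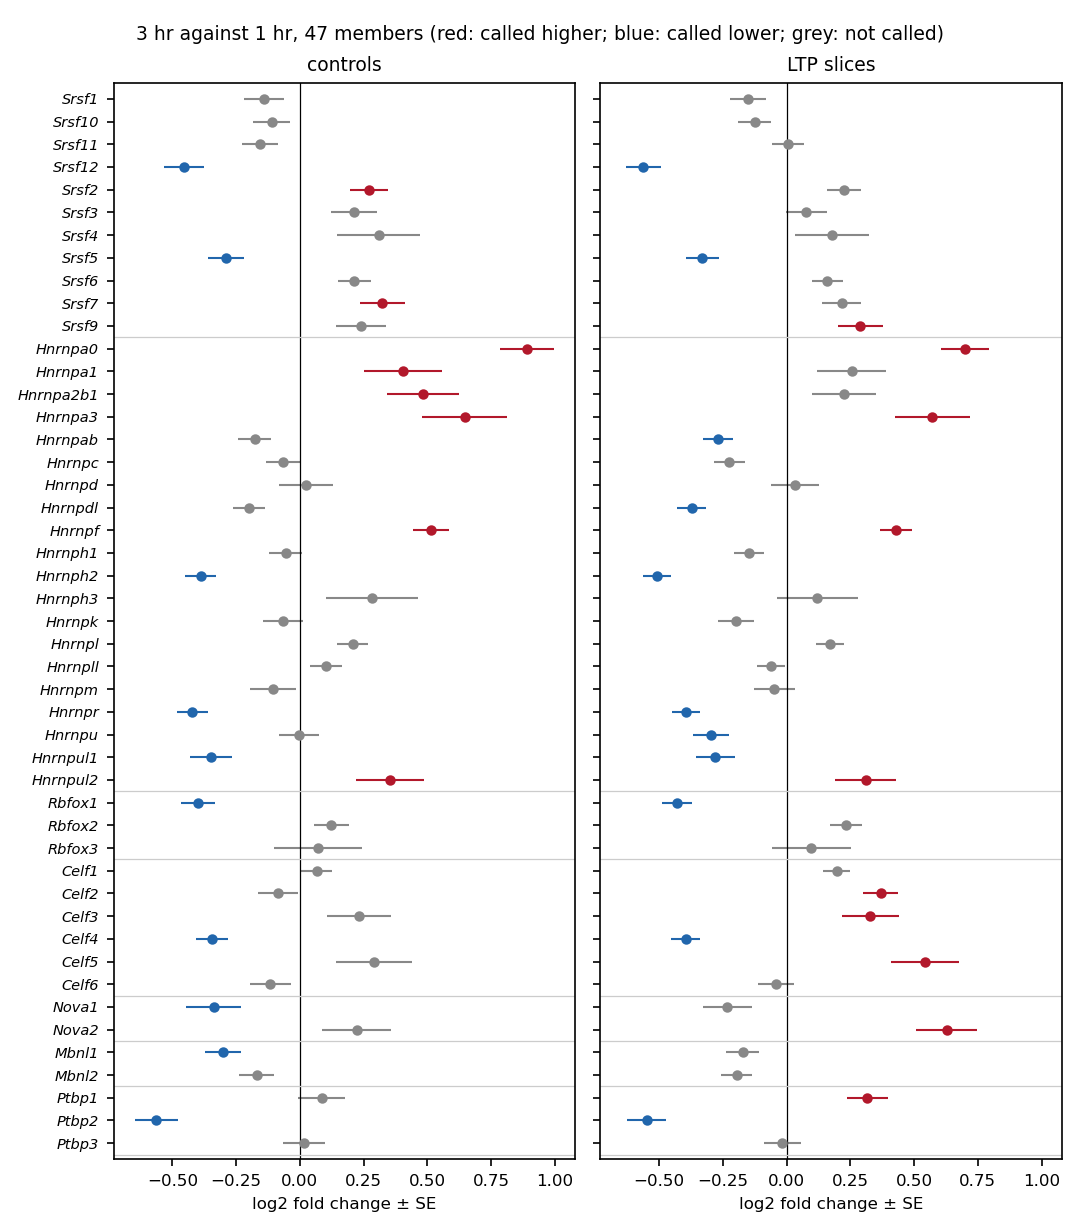
Log2 difference between 3 hr and 1 hr in controls (left) and in LTP slices (right) for the 47 members tested, with bars of 1 SE. Red and blue mark members called higher and lower at 3 hr. Hnrnpa0 leads on the right of both panels, at 0.89 and 0.70, and Ptbp2 and Srsf12 are the lowest in both.

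Markers of cell types moved between the times too. In controls 4 of 5 microglia markers, 3 of 4 endothelial markers, 3 of 6 neuron markers and 1 of 5 astrocyte markers were lower at 3 hr, and 3 of 5 oligodendrocyte markers were higher. In LTP slices 9 markers were lower and 4 were higher. Over all libraries the microglia sum was 139 to 157 CPM at 1 hr and 98.1 to 112 CPM at 3 hr, and the oligodendrocyte sum 4498 to 6343 CPM at 1 hr and 6161 to 7624 CPM at 3 hr. The neuron sum was 5007 to 5777 CPM at 1 hr and 4330.5 to 4999.6 CPM at 3 hr. Their part in the members' differences between times was not tested.

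Some members share exonic bases with another gene, and the sources used here do not say if reads were counted by strand. In Ptbp1 20.7% of exonic bases are covered on the other strand, by genes that include Plppr3, which had 16.4 CPM in 1 hr controls and 17.1 CPM after LTP and a log2 fold change of 0.07 at 1 hr and -0.03 at 3 hr. In Nova2 31.7% are covered by Gm26821, which had at most 0.0237 CPM as a group mean, and in Celf2 7.58% by Gm26565, with at most 0.0606 CPM. Hnrnpu shares 6.93% with Cox20, which was at 0.05 at 1 hr (adjusted p = 0.974). Srsf4 (43.0%), Hnrnpab (29.1%), Hnrnpf (26.5%), Srsf2 (25.3%) and, on the same strand, Hnrnpm (14.7%) are covered as well, so their values are less certain. Reads of near-identical copies, such as the processed pseudogenes of Hnrnpa1 and Hnrnpa3, could also have been divided or dropped in the authors' counting.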

How the data were processed

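RNA-seq was carried out on 12 libraries in 4 groups of 3. According to the study's methods and the labels, libraries came from a stranded total RNA kit with ribosomal RNA removal, and reads were aligned with STAR to mm10. The study's methods name DESeq, and the submitters' processing notes list DESeq2. The authors deposited raw counts per gene, 1 table per time point, with no normalization, and no column was left unmapped. IDs were matched to GENCODE M21 without their version suffix (40217 of 41091), and IDs without a match stayed in the library sizes. How multiply aligned reads were counted is not given in the sources used here.

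In R 4.3.3, edgeR 4.0.16 tested the counts of all genes (filterByExpr, TMM factors, quasi-likelihood fit) with Benjamini-Hochberg adjustment. A call needed a change of more than 1.2-fold and an adjusted p below 0.1, the interaction only the latter. The LTP comparisons had separate fits (5 libraries at 1 hr, 6 at 3 hr, 1 hr control replicate 2 left out as in the study), and time contrasts and interaction in 1 model of 11 libraries. SE is that of the log2 fold change. CPM values were TMM-scaled over all 12 libraries, with 0.1 CPM added before ratios within an animal were taken. At 37118382 to 50815001 counts per library a floor of 3 counts is at most 0.0808 CPM. The script was tested on simulated data with known changes.

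Replicate numbers are animals and pair LTP with control within a time point, per the labels. The correlation of paired deviations over 14185 genes was 0.0029, -0.28 and 0.096 at 1 hr and 0.10, 0.011 and 0.33 at 3 hr for animals 1 to 3. The alternatives were DESeq2 1.42.0, limma-voom (limma 3.58.1), other scalings and filters, the animal block, the library set aside and leaving out each library. The longest transcript as the length for ratios and shares, and the coding length, were chosen after seeing the data. The members and the gene lists were chosen with earlier results of these data known. Values per library are given for members called in LTP against control and for the 3 largest rises and falls between controls, and other members with an unadjusted p under 0.05 in LTP against control are named, with the 3 smallest p of the related lists, except for an item that is not reported here. Genes named otherwise were chosen after their values were seen.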

Additional observations from a re-analysis of the deposited data

How the results depend on the processing

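None of the 64 single-gene results recomputed changed sign under an alternative. At 1 hr the count of members called was 4. It fell to 1 with animal as a replicate block and 1 hr control replicate 2 included, was 5 with the block alone, and ran from 0 to 5 when 1 library was left out (0.373% to 1.97% of all genes). At 3 hr the count was 3, also with the block (9.49% of all genes), and ran from 2 to 8 when 1 library was left out (1.28% to 12.2% of all genes, with 12.2% in the fit with 8). For 3 hr against 1 hr controls leaving out a library gave 14 to 21 in place of 18 (21.9% to 34.8% of all genes), and for LTP slices 19 to 25 in place of 21 (29.5% to 40.7%). The interaction called 0 members, 1 (Celf2) with DESeq2, 1 with no filter on low counts, 0 with the block, and 0 to 1 when 1 library was left out (0.00519% to 0.363% of all genes). The cause of these shifts was not tested. For the 46 of those results that were called, the call stayed in 781 refits and was lost in 62. Most of the 46 are contrasts between time points, and the LTP calls at 1 hr were less steady. Those of Hnrnpu, Hnrnpll, Ptbp1 and Srsf7 were lost under 2, 4, 4 and 6 of 15 alternatives. At 3 hr that of Nova2 was lost under 4 of 14. For the 18 that were not called, 284 refits gave no call and 14 did. Hnrnpa2b1 at 1 hr was gained under 5 of 15 alternatives, with an adjusted p of 0.0151 in DESeq2. Precision at 1 hr rests on 2 controls.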

Other observations

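The 1 hr control library that the study set aside was compared with the others for the 18 members called between the 3 hr and 1 hr controls. On a scale where 0 is the mean log2 level of the other 1 hr controls and 1 that of the 3 hr controls, its position had a median of 0.15 and ran from -0.29 (Hnrnpul1) to 0.97 (Mbnl1). It was nearer the other 1 hr controls for 15 of the 18 members and nearer the 3 hr controls for 3, Hnrnpr, Nova1 and Mbnl1. The 18 members were chosen for a gap between those same controls. Mbnl1 had 163 CPM in this library, against 195 and 196 CPM in the other 1 hr controls and 154 to 167 CPM in the 3 hr controls. Nova1 had 17.4 CPM, against 19.8 and 20.7 CPM and 16.0 to 16.7 CPM. With this library included, Nova1 (-0.24), Mbnl1 (-0.19) and Srsf5 (-0.25) were under the fold minimum and no longer called between controls. In that fit 17 members were called (10 higher, 7 lower), and 27.4% of all genes.

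Within the SR family the level per kb was spread differently at the 2 times. By merged exons Srsf5 held 32.4 ± 0.266% of the family's summed level in 1 hr controls and 26.7 ± 0.874% in 3 hr controls (SD, n = 2 and 3), while Srsf2 went from 9.62 ± 0.0544% to 11.7 ± 0.376%. Rbfox1 held 70.7 ± 0.868% of the RBFOX level in 1 hr controls and 63.0 ± 0.846% in 3 hr controls, with 71.3 ± 0.740% and 62.1 ± 3.46% in the LTP slices. These shares are descriptions without a test of their own.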
